A study of Arabidopsis thaliana with 6 samples.

Results

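A small group of transcripts gave a low signal in replicate 1 of both genotypes of an Arabidopsis root tip comparison. A probe set belonged to the group when the higher of the replicate 1 arrays, one from each genotype, lay at least 0.5 log2 units below the lowest of the other 4 arrays. The distance between those arrays is called the gap here. The members were thus chosen by the measured signals themselves. Of 22746 probe sets, 14, or 0.0615%, met that threshold. UGT78D1 was then left out because genes named as UDP-glycosyltransferases, sugar transporters of certain families, wall polysaccharide enzymes or organelle genes were set aside, which left 13 members. A single gene was named for 5 of them, and the other 8 were not listed in the probe table, so their genes are unnamed here and the exclusion by name could not be applied to them. All 13 have the plain suffix that Affymetrix gives to probe sets without a flag for shared sequence.

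The quadruple mutant combined the alleles phv-6, phb-13, cna-2 and athb8-11 of class III homeodomain-leucine zipper genes, and its wild type was Col er-2, a Columbia line with the er-2 allele of the receptor kinase gene ERECTA. The labels give er-2 only for the wild type. Both were untreated seedlings at 4 days after germination, grown on medium with sucrose, and each of the 3 replicates per genotype pooled about 200 primary root tips of 0.5 mm. RNA was hybridised to ATH1 arrays, and the signals below are log2 values after RMA. The design text calls the replicates biological, and no label says whether arrays of the same number were grown, harvested or hybridised together.

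The root tip holds the stem cell niche, the dividing cells of the meristem and the root cap, and class III homeodomain-leucine zipper factors pattern its vascular tissue. The named members have varied roles: sugar conjugation of flavonols, polyamine synthesis, transport across membranes and hydrolysis of wall glucans. Flavonols are phenolic compounds that accumulate in root tips, where they modulate auxin transport, and plants store them as sugar conjugates. In pieces of tissue such as these, fewer cells of a type and less RNA per cell cannot be told apart.

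Array medians lay between 5.56 and 5.59, and the correlation between any pair was 0.989 to 0.996. The 3' minus 5' signals of the GAPDH control were 0.67 in mutant and 0.79 in Col er-2 replicate 1, within the 0.65 to 0.92 of the other arrays. Those of the ubiquitin control in replicate 1 also lay within the 0.98 to 1.14 of the others. The number of arrays limits the precision of every value given here. Since the gap chose the members, the low level in replicate 1 is given as a description without a test.

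AT1G06000, which encodes a flavonol rhamnosyltransferase, had log2 signals of 9.42, 10.93 and 10.68 in mutant replicates 1, 2 and 3, against 9.65, 10.89 and 10.91 in Col er-2 replicates 1, 2 and 3. The replicate 1 arrays lay apart below, and the other 4 arrays lay close together whatever the genotype. This gene is known outside the tables as a UDP-glycosyltransferase of the UGT family, but the tables give it by locus only, so it stayed in the group. UGT78D1 itself, another flavonol rhamnosyltransferase and the gene left out by name, had 5.23, 7.34 and 7.22 in the mutant, against 5.28, 6.86 and 7.19 in Col er-2. Its gap of 1.58 exceeded that of every member.

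AT5G15950, which encodes an S-adenosylmethionine decarboxylase of polyamine synthesis, had 8.05, 9.79 and 9.22 in mutant replicates 1 to 3, against 7.85, 9.69 and 8.97 in Col er-2. Replicate 1 was lowest, replicate 2 highest and replicate 3 between them in both genotypes. AT5G17010, which encodes a sugar transporter-like protein of the major facilitator superfamily, had 7.56, 8.53 and 8.44 in the mutant, against 7.58, 8.51 and 8.92 in Col er-2. Its replicate 1 signals were nearly the same in the genotypes, and the other mutant arrays overlapped those of Col er-2.

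AT1G47530, which encodes a membrane transporter of the MATE family, had 8.86, 9.74 and 9.64 in the mutant, against 8.63, 9.71 and 9.91 in Col er-2. GH9B8 (AT2G32990), a glycosyl hydrolase gene whose family includes cellulase-type enzymes of the plant wall, had 4.93, 6.07 and 5.74 in the mutant, against 4.79, 5.66 and 5.50 in Col er-2. It was the dimmest named member, with a mean signal of 5.45 that lay below all array medians, and its gap of 0.57 was the smallest in the group. The table holds no detection calls, so a low signal is not read as absence.

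Of the unnamed members, 261569_at had the largest gap, 1.23, with 5.49, 7.69 and 6.98 in the mutant, against 5.74, 7.48 and 7.21 in Col er-2. The brightest member was 252123_at, at 10.68, 12.26 and 12.20 in the mutant, against 11.04, 12.24 and 12.38 in Col er-2. A spread between all the replicate numbers was seen for 257481_at, at 4.69, 7.58 and 5.83 in the mutant, against 4.60, 7.02 and 5.63 in Col er-2. Each number of 257481_at thus had its own level, and the genotypes lay close together within it.

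The probe set 261907_at had 6.51, 8.75 and 8.18 in the mutant, against 7.27, 8.47 and 8.81 in Col er-2. For 250533_at the signals were 8.90, 10.33 and 10.50 in the mutant, against 9.52, 10.64 and 10.42 in Col er-2. For 264436_at they were 5.67, 6.91 and 7.36 in the mutant, against 6.25, 6.97 and 7.55 in Col er-2. In these 3 the mutant replicate 1 array was the lowest of all 6. The dimmest member was 266719_at, at 4.57, 5.96 and 5.31 in the mutant, against 4.61, 5.82 and 5.47 in Col er-2. In 248582_at, at 8.81, 9.39 and 9.44 in the mutant, against 8.32, 9.45 and 9.52 in Col er-2, the order was the other way, with Col er-2 replicate 1 lowest. Over the 13 members, mutant replicate 1 lay below Col er-2 replicate 1 in 8, with a median difference of -0.03. The share over all probe sets was not counted, so the 8 is a description.

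**Figure D1:**
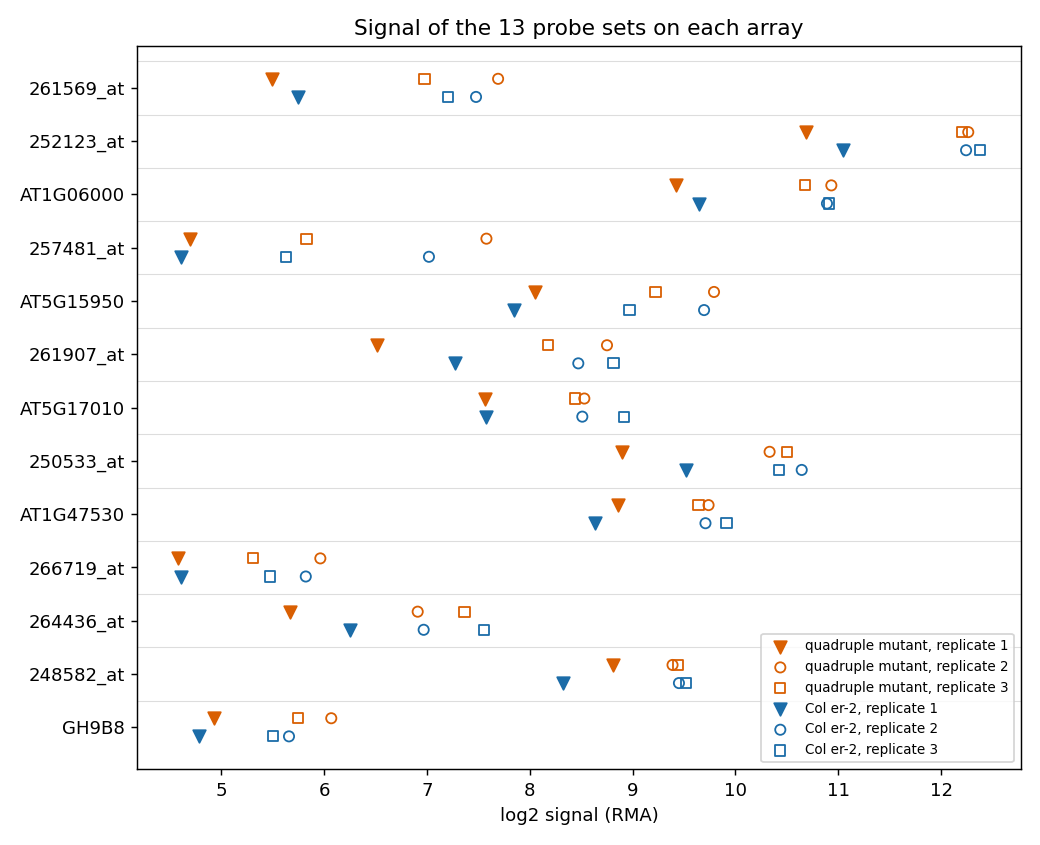
Log2 signal (x axis) of the 13 probe sets (rows, ordered by gap) on each array, with mutant arrays in orange above Col er-2 arrays in blue, and replicate 1 as filled triangles. In every row both triangles lie left of the 4 open symbols, by 0.57 to 1.23, as the rule requires.

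The members just inside the threshold were GH9B8 and 248582_at, with gaps of 0.57 for GH9B8 and 0.57 for 248582_at. Just outside it among named genes lay IQD16, AT1G05170 and ASPGB1, each with a gap of 0.49, then AT5G24760 at 0.45, AT1G06550 at 0.44 and AT2G46420 at 0.43. ASPGB1, which encodes an asparaginase, had 10.41, 11.22 and 11.12 in the mutant, against 10.31, 10.98 and 10.90 in Col er-2. With a gap of 0.25 the group would hold 87 probe sets, and with a gap of 1 it would hold 3. A low level by 0.5 or more in both arrays of a number was met by 14 probe sets for replicate 1, by 1 for replicate 2 and by 3 for replicate 3. The opposite pattern, both arrays high by as much, was met by 107 for replicate 1, 5 for replicate 2 and 0 for replicate 3.

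Whether genotype matters for these transcripts was asked with limma's test of mutant minus Col er-2 over all probe sets. Of the 13 members, 0 passed a Benjamini-Hochberg adjusted p of 0.05, where 0.0264% of all probe sets were called, and 0 had an unadjusted p under 0.05, where 7.47% of all did. In 4 members the mutant mean was above that of Col er-2 and in 9 below it, where 47.4% of all probe sets were below. The median difference was -0.09, beside 0.01 over all probe sets. The smallest adjusted p was 0.903 (limma, Benjamini-Hochberg), that of GH9B8, at 5.58 ± 0.59 in the mutant and 5.32 ± 0.47 in Col er-2 (SD, n = 3 each), a difference of 0.26. The largest difference was that of 261907_at, -0.37 with a 95% confidence interval of -1.70 to 0.96. Because the members were chosen for a low replicate 1, their spread within a genotype was wide, with a median SD of 0.88 in the mutant and 0.69 in Col er-2, beside 0.11 and 0.12 over all probe sets. The intervals were wide in turn, with a median width of 2.05 beside 0.46 over all. The rule thus made a call in this fit unlikely, so 0 of 13 says little about genotype. The median difference followed the array left out: it was 0.32 without mutant replicate 1, -0.41 and -0.22 without mutant replicates 2 and 3, -0.54 without Col er-2 replicate 1, and 0.14 and 0.11 without Col er-2 replicates 2 and 3.

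The same test on replicates 2 and 3 alone, where the members were at their higher level, gave narrower intervals, with a median width of 0.72 beside 0.55 over all probe sets. Again 0 of 13 were called by limma with Benjamini-Hochberg adjustment, where 0.0176% of all were. With so few called over all, 0 of 13 calls says little about the members. An unadjusted limma p under 0.05 was met by 0 members, where 6.15% of all probe sets met it. All 13 differences lay between -0.23 and 0.38, and the median was -0.08 beside 0.01 over all. GH9B8 differed by 0.32 (95% confidence interval -0.01 to 0.66), with 6.07 and 5.74 in the mutant, against 5.66 and 5.50 in Col er-2, so that its groups did not overlap there. The other member without overlap was 248582_at, with 9.39 and 9.44 in the mutant, against 9.45 and 9.52 in Col er-2, a difference of -0.07 (interval -0.31 to 0.17). These are 2 of 13, where 35.1% of all probe sets had no overlap in that comparison. With all arrays the rule itself makes the genotypes overlap in every member, so that count is not given.

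The rule also used the lowest of the replicate 2 and 3 arrays, so members with an array far down among these were selected against. This fit is thus not independent of the rule, and its small differences are partly built in. The median width of the members, 0.72, was still above the 0.55 over all probe sets. The narrowest intervals from replicates 2 and 3 are given first. That of 252123_at ran from -0.33 to 0.18, that of 248582_at from -0.31 to 0.17, that of AT1G47530 from -0.40 to 0.16 and that of AT1G06000 from -0.38 to 0.19. A difference of 2-fold, which is 1 on the log2 scale, lay outside the intervals of 12 of the 13 members. The exception was 257481_at, from -1.08 to 1.84, whose replicates 2 and 3 stood far apart. The share of all probe sets with such intervals was not counted, so the 12 of 13 is a description and sets the members apart from nothing. Differences inside the intervals remain possible with these arrays.

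**Figure D2:**
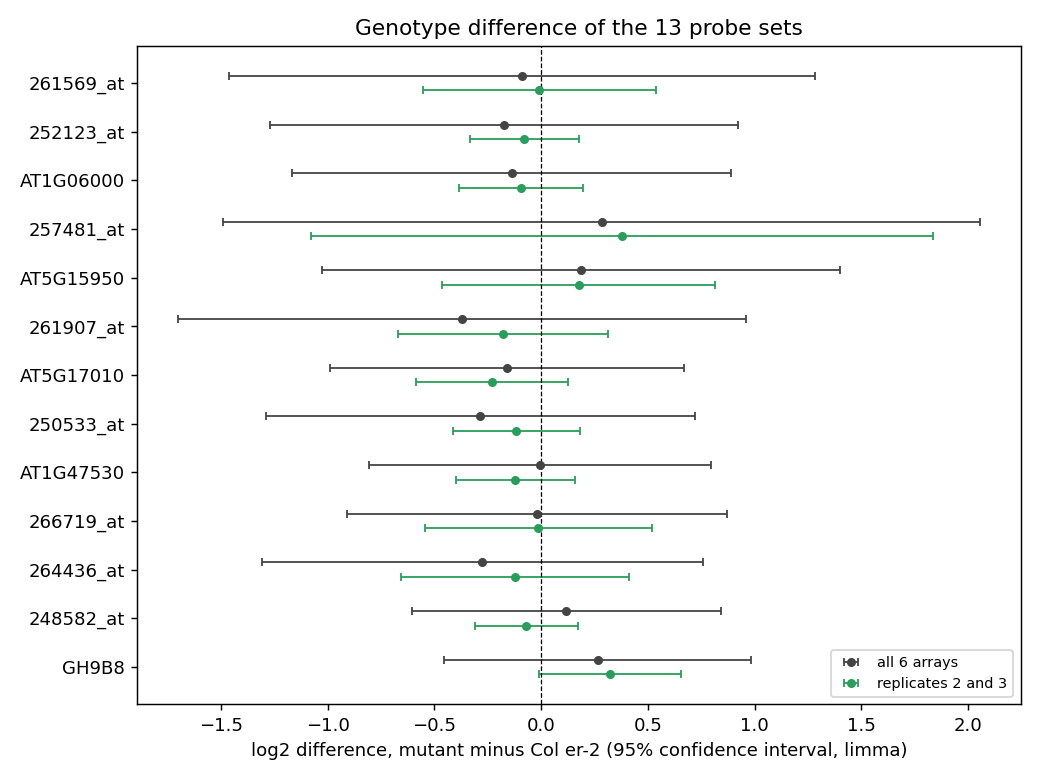
Log2 difference, mutant minus Col er-2 (x axis), for the 13 probe sets (rows), with 95% confidence intervals from limma, for all 6 arrays in grey and for replicates 2 and 3 in green. All intervals of both fits include 0, and the green intervals are narrower, with a median width of 0.72 against 2.05.

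The depth of the low level was then compared between the genotypes, as the mean of replicates 2 and 3 minus replicate 1. This deficit had a median of 1.46 on the log2 scale in the mutant (range 0.60 to 2.01) and 1.18 in Col er-2 (range 0.80 to 1.72), or 2.75-fold and 2.26-fold in signal. It was larger in the mutant for 9 members, where 51.3% of all probe sets had the larger value there, and smaller for 4. With 261907_at the deficit was 1.95 in the mutant and 1.37 in Col er-2, and with 250533_at it was 1.52 in the mutant and 1.02 in Col er-2. The other way lay 248582_at, with 0.60 in the mutant and 1.16 in Col er-2, and AT1G47530, with 0.83 in the mutant and 1.18 in Col er-2. The deficit of AT5G15950 was 1.46 in the mutant and 1.49 in Col er-2, and that of 266719_at was 1.06 in the mutant and 1.04 in Col er-2.

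A limma fit of the difference between the deficits called 0 of 13 members (Benjamini-Hochberg adjusted p under 0.05), but 0% of all probe sets were called too and the rule used the same replicate 1 arrays, so this count says nothing about the members and the values are given as a description. At an unadjusted p under 0.05 there was 1 member, 248582_at, or 1 of 13 where 3.49% of all passed. Its deficit differed by -0.56 (95% confidence interval -0.98 to -0.14), mutant minus Col er-2. The interval of AT1G06000 was -0.37 to 0.63 and that of AT5G15950 was -1.13 to 1.08. Each genotype has 1 array in replicate 1, so the spread in this fit comes from replicates 2 and 3 alone.

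**Figure D3:**
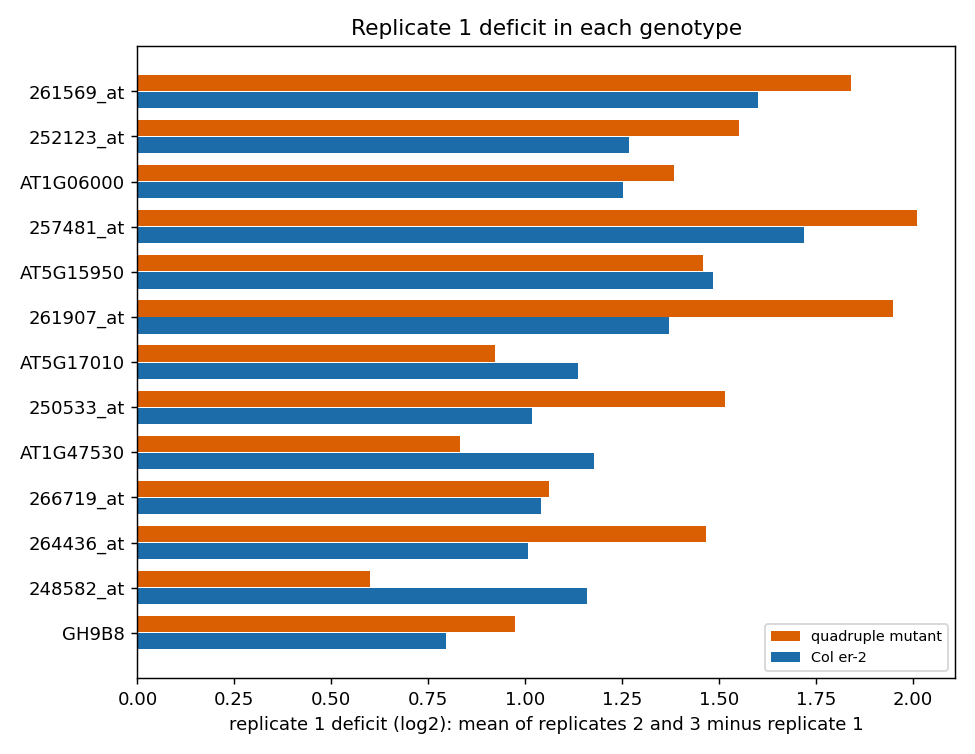
Replicate 1 deficit (x axis, log2), the mean of replicates 2 and 3 minus replicate 1, for the 13 probe sets (rows), with the mutant in orange above Col er-2 in blue; each bar rests on 3 arrays and carries no error bar. The bars run from 0.60 to 2.01 in the mutant and from 0.80 to 1.72 in Col er-2, and the mutant bar is the longer in 9 rows.

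The members were not alike in replicates 2 and 3, whose order the rule did not use. In 4 of 13, replicate 2 of both genotypes lay above replicate 3 of both, where 14% of all probe sets did so. These were 257481_at, with the replicates apart by 1.75 in the mutant and 1.39 in Col er-2, AT5G15950, by 0.57 in the mutant and 0.73 in Col er-2, 266719_at, by 0.65 in the mutant and 0.35 in Col er-2, and 261569_at, by 0.72 in the mutant and 0.27 in Col er-2. The opposite order held for 1 member, 264436_at, where replicate 2 minus replicate 3 was -0.46 in the mutant and -0.59 in Col er-2, and for 14.3% of all probe sets. In the other 8 the replicate 2 arrays of both genotypes overlapped the replicate 3 arrays. Among these GH9B8 was higher in replicate 2 within each genotype, by 0.33 in the mutant and 0.15 in Col er-2. The order was not tested over samples, since it was read off the 4 arrays themselves.

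**Figure D4:**
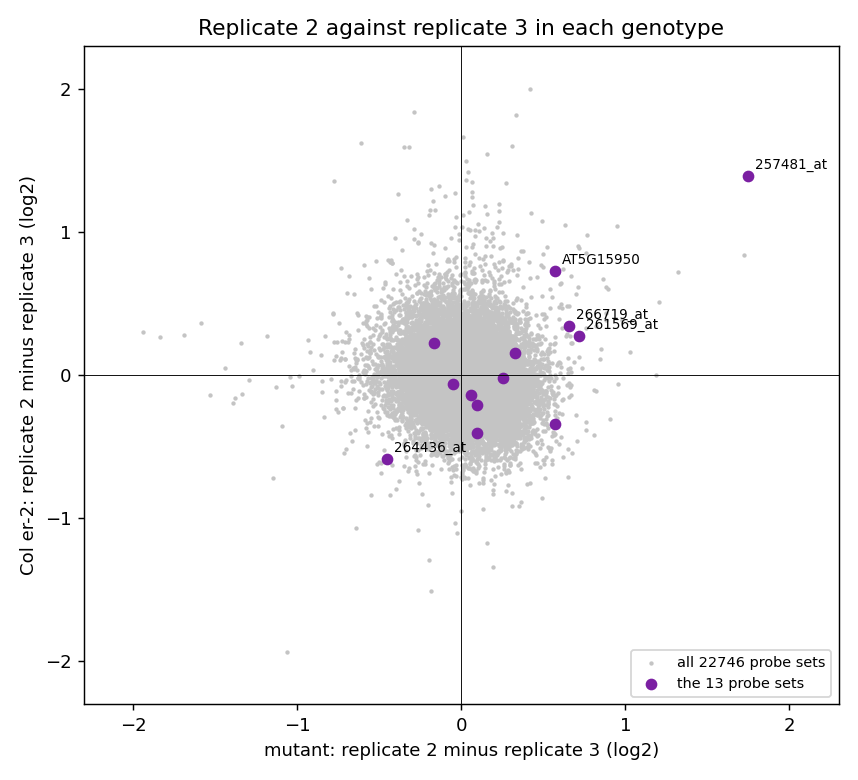
Replicate 2 minus replicate 3 (log2) in the mutant (x axis) and in Col er-2 (y axis) for all 22746 probe sets in grey, of which 3 fall outside the axes, and for the 13 members in purple. The probe set 257481_at lies far to the upper right at 1.75 and 1.39, AT5G15950, 266719_at and 261569_at lie to the upper right, and 264436_at lies to the lower left.

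Of 35 gene lists for pathways, tissues and gene classes, 1 held a member, the list of glycosyl hydrolases with GH9B8. Of its 40 genes named on the array, 9, or 22.5%, had both replicate 1 arrays below the other 4, GH9B8 among them. The share was 11.9% of all 13355 named genes. Among those of the 35 lists with named genes, it ran from 0% to 37.5%. The highest was that of 8 phenylpropanoid, flavonoid and terpene genes. None of the 40 was called higher or lower in the mutant by limma with Benjamini-Hochberg adjustment, and 4 had an unadjusted p under 0.05. The other 4 named members are given in the tables by locus without a description, so lists built from words could not hold them. Across these lists and the added ones below, 448 genes in all, 0 were called for genotype by limma with Benjamini-Hochberg adjustment, and 41 had an unadjusted p under 0.05, where 7.47% of all probe sets did. Over the alternatives run, 0 to 5 of them were called, with 4 under the replicate block.

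A list of 37 flavonoid pathway genes was added after values were seen, and 9 were named on the array. Both replicate 1 arrays were below the others in 4 of the 9, where 11.9% of all named genes had them so. UGT78D1 alone was so by 0.5 or more. The list was added with such values known, so the 4 of 9 is a description. CHIL, a chalcone isomerase-like protein that aids flavonoid synthesis, had 9.79, 11.09 and 10.77 in mutant replicates 1 to 3, against 10.48, 11.23 and 11.17 in Col er-2. HCT, a hydroxycinnamoyl transferase of the phenylpropanoid pathway, had 7.79, 8.33 and 8.15 in the mutant, against 7.86, 8.37 and 8.40 in Col er-2. Their gaps of 0.30 for CHIL and 0.29 for HCT fell short of the threshold. UGT78D2, a flavonoid glucosyltransferase gene, had 8.57, 9.80 and 8.98 in the mutant, against 9.09, 9.87 and 9.53 in Col er-2, so its mutant replicate 3 lay below Col er-2 replicate 1. UF3GT, another glycosyltransferase gene, had a gap of 0.04, and the dim genes DFR, BAN and UGT78D3, as well as the light-response regulator HYH, did not have both replicate 1 arrays below the others. Of the 9, 0 were called for genotype by limma with Benjamini-Hochberg adjustment, and 0 had an unadjusted p under 0.05.

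Other transcripts moved the opposite way with replicate 1. From a list of 27 sugar starvation genes, 5 were named on the array, MCCA, MCCB, IVD, AKINBETA1 and ATG8E. All 5 had both replicate 1 arrays above the other 4, where 6.8% of all probe sets did so. The distance ran from 0.04 for MCCB to 0.35 for ATG8E, a dim gene. The list was chosen with earlier results of these data known, so its count is a description. From a list of 25 sugar induced genes, 2 were named, APL3 and APL4. Of these, 0 had both replicate 1 arrays below the other 4. IVD, which encodes isovaleryl-CoA dehydrogenase of leucine breakdown, had 8.16, 7.64 and 7.85 in the mutant, against 8.24, 7.77 and 7.74 in Col er-2. Of 4 named genes of the handling list, CML38 and WRKY53 had both replicate 1 arrays highest, and of 3 named circadian clock genes, from a list added after values were seen, GI did. GI, a clock gene whose transcript peaks late in the day, had 7.64, 7.16 and 7.13 in the mutant, against 7.53, 7.02 and 6.96 in Col er-2. The labels give no hour of harvest, and the part of sugar supply, handling or time of day in the low level of the members was not tested.

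In no list of tissue markers did both replicate 1 arrays lie beyond the other 4 in the summed signal. The 4 of 18 root tip genes that were named, BBM, JKD, AGL42 and CLE40, had summed linear signals of 193 in mutant and 172 in Col er-2 replicate 1, against 187 to 215 on the other arrays. Within each genotype, however, this sum was lowest in replicate 1. The other arrays had 215 and 214 in the mutant, and 208 and 187 in Col er-2. A lower share of such cells in replicate 1 was not tested. BBM and JKD lay above the array medians, and AGL42 and CLE40 below them. The 2 named root hair genes, EXPA7 and EXPA18, summed to 42.8 in mutant and 50.5 in Col er-2 replicate 1, within the 42.3 to 52.3 of the others. The 2 named genes of green tissue, RCA and LHCB4.1, summed to 72.9 in mutant and 88.2 in Col er-2 replicate 1, against 74.8 to 117.6 on the others.

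Position could be read for the 5 named members only. Within 5 protein-coding genes on either side of them in the TAIR10.1 gene order, 21 genes were named on the array, and 0 of them had both replicate 1 arrays below the other 4, where 12.1% of all probe sets did. UGT78D3 and UGT78D2, given above, lie 2 and 4 genes from AT5G17010, and their gaps were -0.12 for UGT78D3 and -0.11 for UGT78D2.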

How the data were processed

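The authors deposited 1 log2 signal per probe set for each of 6 ATH1 arrays, 3 per genotype. Per the submitters' processing notes, the tools were RMA, limma and Affymetrix Expression Console, with no version given, and the genome build is not given in the sources used here. That the values are RMA signals, normalized by quantiles over the arrays, follows from those names and the range of the values. RMA compresses differences of dim probe sets. From 22810 probe sets 64 controls were left out. Groups and replicate numbers came from the sample titles.

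The members and lists were chosen with earlier results of these data known. The probe table named 1 gene for 13513 probe sets, several for 503 and none for 8730. The brightest probe set stood for a gene in the lists. Tests used limma 3.58.1 in R 4.3.3 (lmFit and eBayes) over all 22746 probe sets, with a threshold of 0.05 on the Benjamini-Hochberg adjusted p, and the scripts were tested on simulated data. Named in the text are, by rule, members with the largest gap, the smallest genotype p or the largest signal, and genes next to the threshold. Unnamed members, and list genes that are no members, are outside it and were picked with their values known. Promoter motifs, planned at first, were not analysed here.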

Additional observations from a re-analysis of the deposited data

How the results depend on the processing

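The count of members called for genotype was 0 in all alternatives run for the genotype tests with and without replicate 1. Among them were each array left out, the replicate block and adjusted p under 0.1. Fits that kept replicate 1 arrays without a replicate term also kept the spread that the rule made. Few of all probe sets were called in most settings, so the constant count says little about genotype. The members' adjusted p (limma, Benjamini-Hochberg) ran from 0.419 for GH9B8 upward. Deviations from the group means correlated between arrays of the same number at 0.504 for replicate 1, 0.065 for replicate 2 and 0.176 for replicate 3. Replicate 1 of a genotype correlated at -0.425 to -0.138 with replicates 2 and 3 of the other. Deviations cancel out within a genotype, so negative values there follow from the 0.504 and add nothing to it. Mutant replicate 2 with Col er-2 replicate 3 gave 0.317, and mutant replicate 3 with Col er-2 replicate 2 gave 0.108. The replicate 1 arrays thus went together, while the numbers 2 and 3 did not pair the arrays. With the replicate block, limma called 0 of 13 members and 109 of all probe sets (115 with a term for replicate 1 only), against 6 without it. Other settings called 11 of all probe sets (quantile normalization repeated), 14 (eBayes with trend), 22 (array weights) and 27 (trend and robust), and 1 to 8 with an array left out. Genes of the lists were called 0 times, but 4 times with the replicate block, 5 with the replicate 1 term, 2 with array weights and 2 with trend and robust. The number of members was 13, but 87 at a gap of 0.25 and 3 at a gap of 1 by construction. It was 15 after median centring or repeated quantile normalization, with all 13 kept in each, 13 with dim probe sets left out, and 12 without AT1G06000, a choice made after seeing the data. The order of replicates 2 and 3 held for the same 4 members after either normalization, also added after seeing the data. The median genotype difference ran from -0.54 to 0.32 with 1 array left out, since replicate 1 and the others then weigh unequally in the genotypes. For the same reason single members turned sign, from -0.62 to 0.53 (261569_at), -0.60 to 0.34 (252123_at), -0.56 to 0.32 (AT1G06000), -0.49 to 0.95 (257481_at), -0.31 to 0.67 (AT5G15950), -0.84 to 0.28 (261907_at), -0.54 to 0.15 (AT5G17010), -0.62 to 0.22 (250533_at), -0.40 to 0.27 (AT1G47530), -0.37 to 0.34 (266719_at), -0.63 to 0.21 (264436_at), -0.27 to 0.33 (248582_at) and -0.00078 to 0.59 (GH9B8). With array weights 257481_at was at -0.25 and AT5G15950 at -0.053, and with repeated quantile normalization 266719_at was at 0.0017. The cause of these was not tested. In replicates 2 and 3 alone 248582_at was at -0.069. Its mutant minus Col er-2 difference was 0.49 in replicate 1, -0.062 in replicate 2 and -0.076 in replicate 3. Low signal limits 266719_at and GH9B8, which lay below the array medians.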
